A study of Drosophila melanogaster with 3 samples.

Results

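This report covers the sex-biased genes of somatic tissue, read from the 8 arrays of male and female thorax in a series of 12 arrays. They belong to 2 of the 3 deposited samples, male thorax and female thorax, with 4 replicate arrays each, and all 8 arrays were used. The third sample, cells from the apical tip of the testis, was left out of the main fit and served to mark probes that are bright in the male germline. It entered only an alternative fit with all 12 arrays. All flies were wild-type mated adults of the OreR lab strain, under a week old and raised on cornmeal media at room temperature, and none received a treatment. Thoraxes were dissected free of head, abdomen, legs and wings, and separate RNA extractions were combined into 4 independent pools per sex before labeling with Cy3 and hybridization to 1-color Agilent Drosophila arrays. The study used the thorax as a somatic control for expression of the X chromosome in the germline, so the sexes were compared here for a different purpose, to describe which genes differ.

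In Drosophila, somatic sex is set cell by cell by a splicing cascade in which Sex lethal, active in females, directs transformer, and transformer directs doublesex and fruitless. Doublesex proteins then control genes such as those of the yolk proteins, which the female fat body secretes for uptake by the oocytes, and those of the cuticular hydrocarbons, which oenocytes make and which serve as sex pheromones. In males, the roX RNAs and the MSL proteins bind the X chromosome and raise its transcription, and Sex lethal blocks that complex in females. The thorax consists mostly of flight muscle, and the same dissection takes along cuticle, fat body, foregut, the front of the midgut, thoracic ganglia and blood cells.

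The arrays lay on 3 slides. Slide A held replicates 1 and 2 of both sexes, slide B male replicates 3 and 4 and slide C female replicates 3 and 4. Slide A was scanned on a day of its own, so sex is balanced on slide A, while on the second scan day slide and sex cannot be told apart. Each array measured 32162 probes, and the scanner software called between 64.3% and 74.4% of them clearly brighter than the background (below, well above background), with no spot saturated. Every level below is a log2 signal minus that of the probe at the 75th percentile on the same array, so 0 marks that percentile. Opposite-sex arrays of slide A correlated at 0.969 to 0.980 (4 pairs) and same-sex arrays on different slides at 0.942 to 0.966 (8 pairs). Flight muscle genes were bright in both sexes. The mean level of Mlc1, a myosin light chain, was 6.68 in males and 7.03 in females, and that of Mf, myofilin, was 6.59 and 7.09.

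At an adjusted p under 0.05 (limma with the slide as a random block, Benjamini-Hochberg over all probes), 1935 of the 23084 probes tested differed between male and female thorax, which is 8.38%. Of these, 851 (3.69%) were higher in males and 1084 (4.70%) in females. The change exceeded 2-fold for 544 probes, 233 of them higher in males, and the median size of a called change was 0.77 log2 units. A probe was called bright in testis where its median over the 4 testis arrays reached the arrays' 75th percentile, which held for 585 called probes (30.2%, against 27.8% of all probes tested). Setting these aside left 1350 probes, 686 higher in males and 664 in females, and 406 of the 1350 carry no gene name. Counted by the brightest probe of each gene, 1059 of 10822 genes differed (9.79%), 438 higher in males (4.05%) and 621 in females (5.74%), and 677 of the 1059 were not bright in testis.

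The number of calls depended on single arrays and on how the slide entered. It was 386 (1.67%) with no slide term and 1033 (4.47%) with the slide as a fixed effect, and 268 probes were called under all 3 treatments. It fell to 210, 305, 250 and 367 without male replicate 1, male replicate 2, female replicate 1 or female replicate 2, the 4 arrays of slide A, to 1069 and 1235 without female replicate 3 or 4, and it rose to 3489 and 3215 without male replicate 3 or 4. By gene, it was 183 (1.69%) with no slide term and 557 (5.15%) with the slide as a fixed effect. Of the 1935 probes, 1914 (98.9%) had the same sign on both scan days. They were called from these same arrays, which favors probes of the same sign throughout, so this agreement is not a separate check. The 4 male and 4 female values did not overlap for 1499 of the 1935, and for 15.1% of all probes tested and 16.8% of genes. Of the 89 called probes that stand for genes named below, 30 stayed past the threshold with each array left out in turn. A fitted change weighs slide A most, and therefore need not equal the difference between the means. The arrays came from independent pools of RNA. With the slide as a random block, the p-values weigh the spread between pools within a slide more than that between slides.

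The yolk protein genes showed the largest female-high differences of any named gene. Each yolk protein transcript lay far above the 75th percentile of the array in female thorax and below it in male thorax. The level of Yp1 was 6.37, 6.86, 6.66 and 6.40 on the female arrays and -5.70, -5.83, -2.71 and -5.98 on the male arrays. Every female array was above every male array, and male replicate 3 was the highest of the males. The change, male minus female, was -12.18 log2 units (SE 0.81, adjusted p = 0.000169). Yp2 read 6.89, 7.35, 7.44 and 7.19 in females and -2.05, -2.33, -1.58 and -3.53 in males, a change of -9.38 (SE 0.49, adjusted p = 6.32e-05), and a further probe of Yp2, well above background on 1 male array, gave -13.81. For Yp3 the female arrays stood at 6.84, 7.37, 7.20 and 7.0 and the male arrays at -3.73, -1.68, -0.96 and -4.64, with a change of -9.82 (SE 0.99, adjusted p = 0.00218). The 3 genes were past the threshold with each array left out in turn. In whole thorax RNA, fewer cells of a type and less RNA per cell cannot be told apart, here and for every gene described below.

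A second group of female-high genes is known from the adult fat body. The female arrays read 3.85, 3.45, 5.08 and 4.50 for Obp99a, an odorant-binding protein, and the male arrays -1.71, -1.56, -2.04 and -2.90. All females exceeded all males by a wide margin (-5.55, SE 0.36, adjusted p = 0.000163), although this probe was among those bright in testis, with a testis median of 2.38. Fit, a secreted fat body product named for its female-specific expression independent of transformer, was bright in both sexes, at 6.44, 6.37, 6.81 and 6.54 in females and 4.49, 4.00, 4.48 and 3.12 in males. No female array was as low as a male array, and the change was -2.26 (SE 0.36, adjusted p = 0.0147), which ended above the threshold (adjusted p = 0.059 to 0.082) without any one of the slide A arrays. NLaz, a lipocalin that carries lipids in the hemolymph, read 5.46, 5.50, 5.62 and 5.35 in females and 3.31, 3.67, 3.64 and 4.07 in males, and its change of -1.94 (SE 0.18, adjusted p = 0.00123) held with each array left out.

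Fat body genes were also among the largest male-high differences outside the sex determination pathway. Obp99b, another odorant-binding protein, stood at 5.57, 5.4, 5.34 and 5.01 on the male arrays and 2.48, 2.02, 2.78 and 1.00 on the female arrays. The sexes did not overlap, and the change was 3.25 (SE 0.45, adjusted p = 0.00826); without male replicate 1 the adjusted p was 0.065. Sxe2, a lipase-family gene found as a sex-specific enzyme of head fat, read 0.56, 0.34, 0.59 and 1.70 in males and -2.55, -2.69, -1.99 and -1.89 in females. Its change was 3.07 (SE 0.30, adjusted p = 0.00185). Takeout, secreted by male fat body and tied to courtship, was at 6.41, 6.17, 6.70 and 6.26 in males and 4.02, 2.89, 5.71 and 5.51 in females. Every male array was above every female array, but the females of slide A lay below those of slide C, and the change was 2.83 on slide A and 0.86 on the second scan day. The fitted change of 2.57 (SE 0.43, adjusted p = 0.0155) was lost without male replicate 1, male replicate 2 or female replicate 1 (adjusted p = 0.0585 to 0.112). CG11854, which lies next to takeout on 3R, read 1.97, 2.02, 2.70 and 2.99 in males and -1.76, -2.79, 0.29 and -0.11 in females, with a change of 4.07 (SE 0.42, adjusted p = 0.00224). Cyp4d21, also known as sxe1, was at 2.52, 2.53, 4.14 and 3.95 in males and 0.88, 0.89, 2.45 and 2.35 in females. The sexes did not overlap, although the lowest males, on slide A, lay just above the highest females, on slide C, and they differed by 1.64 on both scan days (1.64, SE 0.25, adjusted p = 0.0128), and the call was lost without any one slide A array (adjusted p = 0.0616 to 0.0839).

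**Figure D1:**
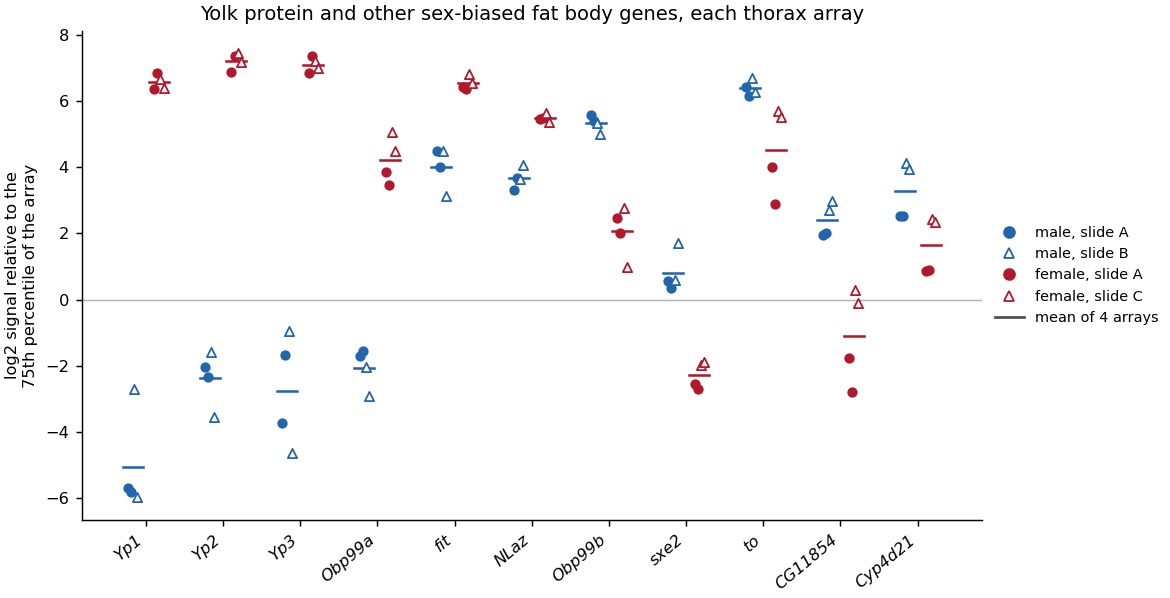
Level of 11 sex-biased genes on each thorax array, as log2 signal above or below the array's 75th percentile (vertical axis), with male arrays in blue and female arrays in red. Filled circles are slide A, open triangles slides B and C, and bars the mean of 4 arrays. Yp1, Yp2, Yp3 and Obp99a separate the sexes by over 5 log2 units, and takeout and CG11854 are lower in the females of slide A than in those of slide C.

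All 9 genes in the list of yolk and sex-biased fat body genes were called, 5 higher in females and 4 in males. The list was drawn up from genes already known to differ, partly with earlier results of these arrays in view, so its count is a description. By contrast, 1 of the 28 tested genes in the list of general fat body genes was called (3.57%, against 9.79% of all genes), namely NLaz. The median change of that list was -0.10, beside -0.03 over all genes. Its summed signal was 252 to 279 in males and 320 to 374 in females, in units of the array's 75th percentile, so the sexes did not overlap. Such a sum gives the brightest genes the most weight, whereas the median counts each gene alike. Apolpp, the apolipoprotein of the main hemolymph lipid carrier, had a mean of 6.15 in males and 6.61 in females (change -0.49, adjusted p = 0.0863), and FASN1, a fatty acid synthase, 4.19 and 4.42 (change -0.14, adjusted p = 0.672).

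The RNAs of the dosage compensation complex were the clearest male-high transcripts. RoX1 was read by 4 probes, and its brightest gave 3.85, 3.80, 4.21 and 4.41 on the male arrays and -4.91, -4.68, -4.0 and -4.45 on the female arrays. The change was 8.61 (SE 0.17, adjusted p = 3.7e-07), and the 4 probes ranged from 8.15 to 9.83. RoX2 read 1.00, 0.97, 1.05 and 0.49 in males, while none of the 4 female arrays was well above background. RoX2 was therefore at least 163-fold higher in males (adjusted p = 8.04e-05), where the bound sets the male mean against the lowest signal well above background on the female arrays. Msl-2, the protein subunit whose translation Sex lethal blocks, was at -0.14, -0.23, 0.57 and 0.29 in males and -1.65, -1.52, -1.57 and -1.40 in females, without overlap, a change of 1.47 (SE 0.15, adjusted p = 0.00213), and its other 2 probes gave 1.48 and 1.82. The other members of the complex in the list were not called. Their changes were 0.07 for msl-1, 0.02 for msl-3, 0.25 for mle and 0.27 for mof (adjusted p = 0.228 to 0.953).

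For genes that are spliced by sex, the direction depended on the transcript a probe is assigned to. The doublesex probe of transcript RA read 1.72, 1.61, 2.11 and 1.99 in males and -1.98, -2.10, -1.86 and -1.94 in females, with no overlap. Its change was 3.74 (SE 0.11, adjusted p = 4.09e-06) and was past the threshold under every alternative run with a test. The 3 probes of transcript RB went the other way, at -2.96, -2.86 and -0.71 (adjusted p = 0.000188, 0.000451 and 0.0418). The first of them read 0.86, 0.88, 1.14 and 1.35 in females and -2.08, -2.33, -0.90 and -1.09 in males. Sex lethal, the splicing regulator at the top of the cascade, had 9 probes. The 6 assigned to transcript RM were all higher in females, by -0.74 to -1.95 (adjusted p = 0.000585 to 0.0446), while that of RF was higher in males by 0.99 (adjusted p = 0.00263) and the 2 of RK gave 0.60 (adjusted p = 0.0412) and 0.53 (adjusted p = 0.073). The brightest, an RK probe, read 2.06, 2.08, 2.00 and 2.06 in males and 1.5, 1.55, 1.29 and 0.90 in females, and its call was lost without any one slide A array (adjusted p = 0.116 to 0.173). Transformer stood at 0.38, 0.20, 0.71 and 0.79 in females and -0.36, -0.29, -0.32 and 0.19 in males, and its change of -0.64 was not past the threshold (SE 0.17, adjusted p = 0.0536). It was past the threshold without male replicate 3 or without male replicate 4. Of 5 fruitless probes, that of transcript RC was called, 0.85 higher in males (adjusted p = 0.018), and the brightest, of RF, gave -0.23 (adjusted p = 0.548). In all, 5 of the 16 genes in the list were called by their brightest probe (31.25%, against 9.79% of all genes). All 5 were higher in males, as were 4.05% of all genes. Doublesex and Sex lethal count here by their RA and RK probes, while their RB and RM probes were higher in females.

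**Figure D2:**
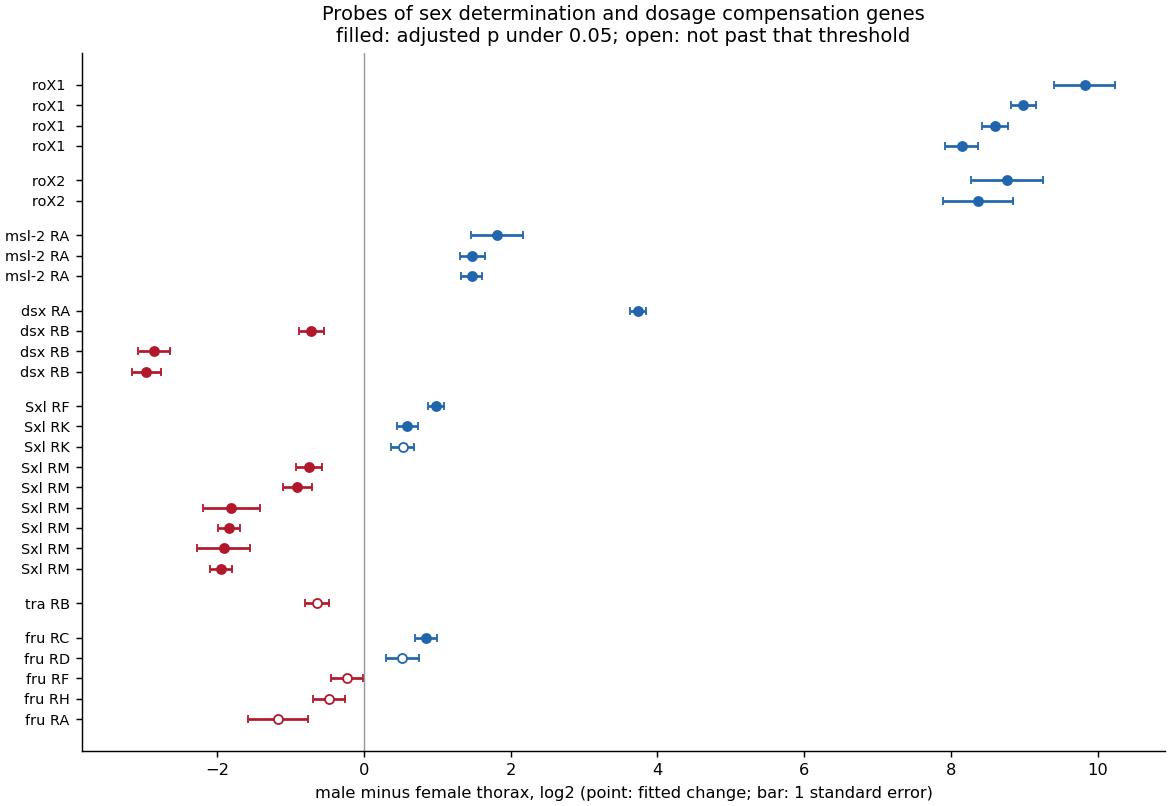
Fitted change, male minus female thorax in log2 units (horizontal axis, with 1 standard error), for each probe of 7 genes of sex determination and dosage compensation. Filled points are past an adjusted p of 0.05. The probes of roX1, roX2 and msl-2 all lie to the right of 0, whereas those of dsx and Sxl fall on both sides by transcript.

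The genes of cuticular hydrocarbons, long-chain waxes of the body surface, differed strongly and in both directions. Higher in females were eloF, an elongase of the female chain-lengthening pathway, and Fad2, the desaturase that makes female dienes. EloF read 0.50, 1.57, 2.69 and 2.69 on the female arrays and -5.4, -4.95, -3.43 and -4.25 on the male arrays, a change of -6.25 (SE 0.41, adjusted p = 0.000169). Fad2 was at -1.41, 0.95, 1.86 and 1.81 in females and -5.51, -5.18, -5.50 and -5.42 in males (-5.41, SE 0.64, adjusted p = 0.00431). Neither gene overlapped between the sexes and both were called with each array left out, though female replicate 1 was the lowest female for both. Higher in males were FarO, a fatty acyl-CoA reductase known from oenocytes, and FASN2, a fatty acid synthase known from oenocytes. Which cells of the dissected thorax gave the signal of these genes was not tested. FarO read 0.62, 0.67, 1.14 and -0.27 in males and -2.52, -1.51, -0.85 and -1.06 in females (2.49, SE 0.45, adjusted p = 0.02), and FASN2 1.97, 2.38, 2.36 and 1.66 and -0.20, 0.45, 1.43 and 1.43 (1.85, SE 0.32, adjusted p = 0.0184). Both separated the sexes, and both calls were lost without any one slide A array (adjusted p = 0.0599 to 0.119). Cpr, the reductase that feeds electrons to cytochrome P450 enzymes, was higher in males by 0.98 (adjusted p = 0.0264), and this call was lost in the same way (adjusted p = 0.102 to 0.14). Its probe was bright in testis, with a testis median of 0.76, and the sexes overlapped.

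Counted over the list, 5 of 10 oenocyte and hydrocarbon genes tested were called, 3 higher in males and 2 in females. Of all genes, 9.79% were called. With no slide term, 2 of the 10 were called, both higher in females, against 1.69% of all genes. With the slide as a fixed effect, 5 of the 10 were called, against 5.15% of all genes. The desaturase gene Desat1, which acts in both sexes, was bright and gave a change of -0.19 (adjusted p = 0.299), with means of 5.43 in males and 5.62 in females. The summed signal of the list was lowest on female replicate 1, at 86.3, and lay between 113 and 142 on the other arrays. Where eloF lies on 3R, it is followed by CG16904, CG9459 and CG9458, elongase-family genes that went the other way. CG9459 and CG9458 were singled out after their values were seen. CG16904 read 4.12, 4.33, 4.63 and 3.56 in males and 1.36, 2.54, 3.41 and 3.35 in females (2.06, SE 0.44, adjusted p = 0.032), and was bright in testis. CG9459 was at 0.46, 0.73, 1.23 and 0.18 in males and -2.69, -1.29, 0.10 and -0.05 in females (2.33, adjusted p = 0.0341), and 2 probes of CG9458 gave 2.17 (adjusted p = 0.0321 and 0.0398). For these 3 genes the male arrays were above all female arrays, and the gap was wider on slide A than on the second scan day. The call on CG16904 was lost without any one array other than male replicate 3 or 4 (adjusted p = 0.0534 to 0.151), and the probes of CG9459 and CG9458 had an adjusted p of 0.0554 to 0.0702 with the slide as a fixed effect.

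Sgp was higher in males on both scan days, and the female arrays fell into separate levels by slide. It read 3.78, 3.97, 4.24 and 3.16 in males and -6.60, -6.29, -0.48 and 0.04 in females. The females of slide A were not well above background and those of slide C were, so that the change of 10.32 on slide A rests on female values not well above background, while the change was 3.92 on the second scan day. The fitted change, which takes the slide A females at those values, was 9.46 (SE 0.95, adjusted p = 0.00214), and the adjusted p was 0.0723 with no slide term. CG10097 had the same order of slides, with 3.07, 3.42, 3.55 and 2.67 in males and -0.99, 0.16, 1.24 and 1.19 in females (3.42, SE 0.43, adjusted p = 0.00606), and CG30008 read 4.19, 4.33, 4.03 and 3.18 and 1.09, 2.21, 2.63 and 2.51 (2.40, SE 0.39, adjusted p = 0.0148). Both sets of arrays were separate. CG30008 lost the call without male replicate 1 or 2 or female replicate 1 (adjusted p = 0.0538 to 0.1), whereas Sgp and CG10097 kept it with each array left out.

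**Figure D3:**
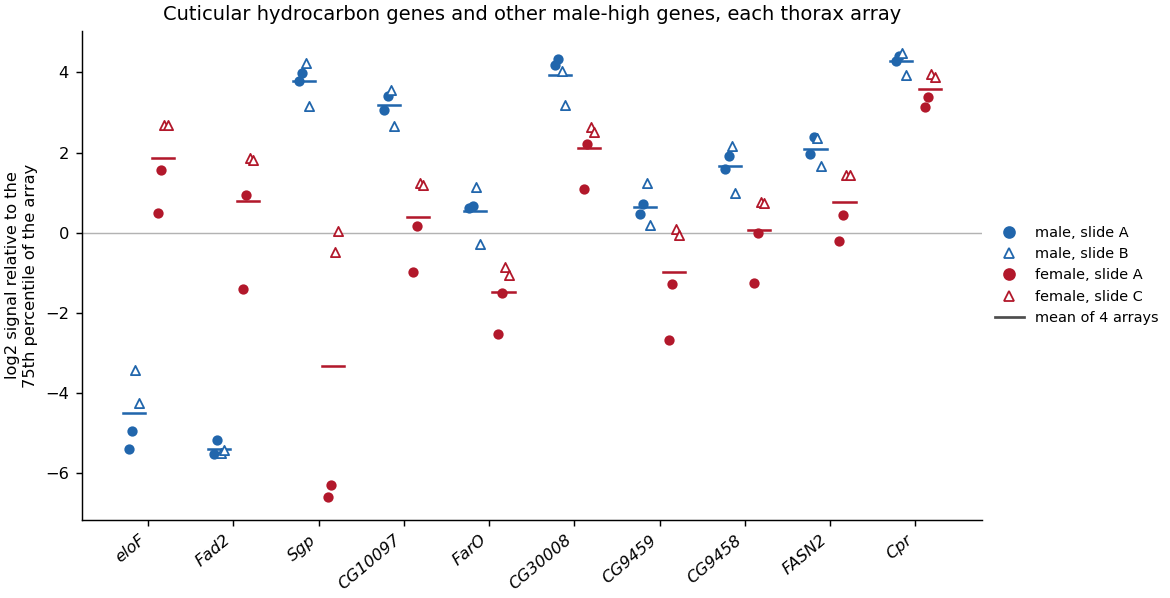
Level of 10 genes on each thorax array, as log2 signal above or below the array's 75th percentile (vertical axis), with males in blue, females in red, filled circles for slide A, open triangles for slides B and C, and bars for the mean of 4 arrays. EloF and Fad2 are high in females, and the other 8 genes are high in males. Female replicate 1, the lowest filled red point, lies below the other females for most genes.

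Lysozyme genes, listed here with the gut digestive enzymes, formed another female-high group. The females of LysB, LysD, LysE and LysP lay close together, whereas the males of LysB, LysD and LysE were on average over 1 log2 unit lower on slide A than on slide B. LysB read 4.16, 4.13, 3.73 and 3.67 on the female arrays and -2.73, -2.43, -1.22 and -1.44 on the male arrays, a change of -6.50 (SE 0.25, adjusted p = 1.39e-05). LysE was at 5.09, 4.93, 5.14 and 5.11 in females and -0.18, 0.07, 1.39 and 1.32 in males (-4.89, SE 0.22, adjusted p = 3.93e-05). LysD gave 5.91, 5.81, 6.27 and 6.12 in females and 1.62, 1.87, 3.21 and 3.06 in males (-3.98, SE 0.22, adjusted p = 8.04e-05). These groups did not overlap, and the 3 genes were called under every alternative run with a test. LysS was not well above background on any male array and was at least 10-fold higher in females (adjusted p = 8.04e-05). LysP, the brightest, changed least, at 6.27, 6.55, 6.40 and 6.25 in females and 5.05, 5.20, 5.56 and 5.57 in males (-1.22, SE 0.14, adjusted p = 0.00347), and LysC, well above background on 2 male arrays, changed by -3.12 (adjusted p = 0.0062, and 0.059 without male replicate 1). Several lysozyme genes are near-identical copies, so signal of one may be read by the probe of another, and which copy differs is uncertain.

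Digestive proteases and sugar-cleaving enzymes varied widely among the arrays of one sex. Of 51 gut genes tested, the lysozymes above included, 9 were called (17.6%, against 9.79% of all genes). Of these, 6 were lysozymes, and the other calls were Jon25Bi, higher in females, and Mal-A5 and LManI, higher in males. Jon25Bi, a gut serine protease, read 2.34, -1.04, 0.45 and -0.09 in females and -4.44, -4.57, -4.63 and -7.07 in males, and its change of -5.27 (SE 1.00, adjusted p = 0.0226) was lost without male replicate 1, male replicate 2 or female replicate 1 (adjusted p = 0.0883 to 0.118). Mal-A5, a maltase, was higher in males by 0.62 (adjusted p = 0.0206), as was LManI, a lysosomal mannosidase, by 0.81 (adjusted p = 0.0453). Both calls were lost without any one slide A array, and that of LManI also without female replicate 3 or 4 (adjusted p = 0.0602 to 0.195). LManV had the widest gap on most arrays without a call, at 1.18, 1.88, 2.91 and -8.61 in males and -7.58, -5.72, -7.56 and -5.82 in females (7.60, adjusted p = 0.135). Male replicate 4 was the lowest male for 40 of the 51 genes and lay over 1 log2 unit below the next male for 36, and female replicate 1 or 4 was the lowest female for 44. Bace, a protease of the gut, separated the sexes, with 3.09, 3.02, 3.57 and 1.52 in females and -2.60, -2.88, -4.95 and -3.26 in males (-5.91, SE 0.65, adjusted p = 0.00307). CG12374, at 5.62, 5.30, 5.72 and 4.30 in females and 1.17, 0.78, 3.41 and -0.64 in males (-4.37, adjusted p = 0.0403), had its highest male value on replicate 3 and its lowest on replicate 4, and the call was lost without any one array other than male replicate 3 or 4 (adjusted p = 0.0561 to 0.167). The summed signal of the gut list was 171 to 710 in males and 478 to 1024 in females, and its part in these changes was not tested.

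**Figure D4:**
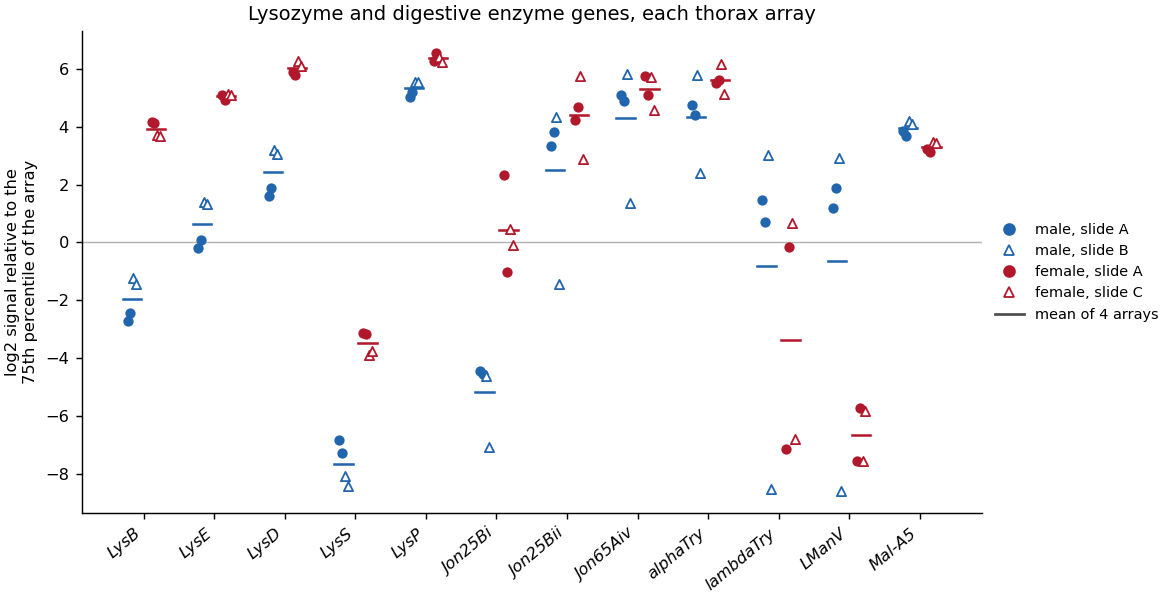
Level of 12 lysozyme and digestive enzyme genes on each thorax array, as log2 signal above or below the array's 75th percentile (vertical axis), with males in blue, females in red, filled circles for slide A, open triangles for slides B and C, and bars for the mean of 4 arrays. The lysozymes separate the sexes, whereas for Jon25Bii, Jon65Aiv, alphaTry, lambdaTry and LManV 1 male array of slide B lies far below the other males.

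Muscle, the main tissue of the thorax, gave few sex differences. An unadjusted p under 0.05 was reached by 6096 of all 23084 probes tested and by 9 of the 34 sarcomere and flight muscle genes. None of the 34 was called by limma by its brightest probe. Their changes ranged from -0.66 to 0.61 with a median of -0.19, against -0.03 over all genes, and the median turned to 0.19 with quantile normalization, 0.42 with no scaling, 0.09 with normexp background correction, 0.08 with no slide term and 0.05 without female replicate 2. Act88F, the actin of flight muscle, had means of 5.57 in males and 5.85 in females (-0.46, adjusted p = 0.356), Mhc, the muscle myosin heavy chain, 5.92 and 5.59 (0.07, adjusted p = 0.886), and fln, flightin, 5.94 and 6.23 (-0.50, adjusted p = 0.298). None of the 34 was called with no slide term or with the slide as a fixed effect. With array weights 3 were higher in males and 2 in females, beside 2643 and 2984 of all 23084 probes. With scan day as a fixed effect, an alternative added after seeing the data, 4 were higher in males, beside 2364 of all 23084 probes. SERCA, the calcium pump of muscle, had 2 dimmer probes called higher in males, by 1.4 and 1.75, while its brightest was not called (-0.20, adjusted p = 0.528). The summed signal was 1239 to 1814 in males and 1233 to 2539 in females, highest on female replicate 2.

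Cuticle genes differed about as often as other genes. Of 80 cuticle protein genes tested, 7 were called (8.75%, against 9.79% of all genes), 6 higher in females and 1 in males. Vajk4, the most firmly called, read 0.94, 1.30, 0.22 and 0.43 in females and -0.13, 0.14, -0.32 and -0.29 in males (-1.05, SE 0.18, adjusted p = 0.0169). Cpr66D, a bright protein of the chitin-binding family, stood at 3.21, 2.9, 3.72 and 3.67 and 2.17, 2.00, 3.13 and 3.12 (-0.91, SE 0.18, adjusted p = 0.0265). The sexes were separate for Vajk4 and overlapped between slides for Cpr66D. Lcp3, Cpr72Eb, Cpr76Bc and TwdlP were also higher in females, by -0.84 to -2.35, and Cpr64Ad was higher in males by 0.57. The other probe of Cpr76Bc gave -0.08 (adjusted p = 0.906), so its probes disagree. None of the 80 was called with no slide term, and the 7 calls were lost without any one of the slide A arrays, 6 of them also without female replicate 3, female replicate 4 or both in turn (adjusted p = 0.0512 to 0.194). Of 36 genes that tan the cuticle or make and cut chitin, limma called none, and their median change was 0.01. An unadjusted p under 0.05 was reached by 8 of the 36 and by 6096 of all 23084 probes tested. With array weights 4 of the 36 were higher in males and 1 in females, beside 2643 and 2984 of all 23084 probes.

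Several genes of blood cells were higher in females. Of 12 tested, 5 were called (41.7%, against 9.79% of all genes). All 5 were higher in females, as were 5.74% of all genes, and the other 7 had changes of -0.40 to -0.01. PPO1 and PPO2, prophenoloxidases of crystal cells, gave 0.63, 0.49, 2.29 and 2.05 and 0.47, 0.24, 1.47 and 1.13 on the female arrays and -0.38, -0.69, 0.64 and 0.56 and -0.29, -0.68, -0.08 and 0.09 on the male arrays. The sexes overlapped for PPO1 and were separate for PPO2 (-1.16 and -0.90, adjusted p = 0.0347 and 0.0371). The other probe of PPO2 gave -0.41 (adjusted p = 0.303) and overlapped between the sexes. Eater and NimC1, receptors with which blood cells take up bacteria, changed by -0.69 and -0.51 (adjusted p = 0.0385 and 0.0434), and Sr-CI, a scavenger receptor, by -0.52 (adjusted p = 0.0496, and 0.0978 for its other probe). None was called with no slide term, and each call was lost without any one array other than male replicate 3 or 4 (adjusted p = 0.0512 to 0.243). The summed signal of the 12 genes was 22.8 to 27.4 in males and 29.1 to 37.1 in females. The list's median of -0.36 became 0.05 with no scaling, where the median of all probes was 0.51.

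Immune effector genes, which the fat body and blood cells release after infection or stress, gave 3 calls of 39 (7.69%, near the 9.79% of all genes), all 3 higher in females. The fitted change was below 0 for each of the 39 genes, with a median of -0.71 (-0.18 with no scaling, where that of all probes was 0.51). That direction rested on single arrays, since the median was 0.04 without female replicate 2 and -0.18 without male replicate 1. The summed signal of the list was 629 to 990 in males and 889 to 1977 in females, highest on female replicate 2. TotC, a stress-induced Turandot protein, read 5.79, 6.59, 5.59 and 4.86 in females and 1.32, 4.42, 1.58 and 1.27 in males. Male replicate 2 was far above the other males but below every female (-3.38, SE 0.80, adjusted p = 0.0418). Drsl5, of the drosomycin family, stood at 5.19, 5.33, 5.47 and 5.21 and 4.29, 4.42, 5.09 and 4.64 (-0.85, adjusted p = 0.0261), with the sexes separate. TotC lost the call without male replicate 1 or any one female array, and Drsl5 without any one slide A array (adjusted p = 0.0629 to 0.158). The third, Dsor1, entered the list by the start of its symbol alone and is a kinase of growth factor signaling. Its brightest probe changed by -2.95 (adjusted p = 8.04e-05) and its other probe by 0.16 (adjusted p = 0.561), so its 2 probes disagree. Without Dsor1, 2 of 38 genes were called. The antimicrobial peptide gene Drs had a change of -0.54 (adjusted p = 0.353), and DptA of -1.10 (adjusted p = 0.787).

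Detoxification genes moved in both directions. Of 136 cytochrome P450, glutathione transferase and UDP-glycosyltransferase genes, 19 were called (14.0%, against 9.79% of all genes), 11 higher in males and 8 in females, and 3 of the 19 were bright in testis. Cyp4d14 stood out, at -2.10, -1.70, -1.54 and -3.63 in males and not well above background on any female array. It was at least 18.1-fold higher in males (adjusted p = 0.00791), and its adjusted p was 0.052 to 0.0544 without male replicate 1 or 2 or female replicate 1. Higher in males by 1.62 and 1.36 were Cyp309a2 and GstE8, with adjusted p = 0.0144 and 0.0239. Cyp4g15, Cyp4s3, Cyp311a1, Cyp305a1, Cyp313b1, GstE2 and GstE3 were higher in males by 0.45 to 0.85, and a dimmer probe of Cyp311a1 gave 1.80 (adjusted p = 0.0011). Ugt49C1 was the most firmly called on the female side, at 1.07, 0.97, 1.46 and 1.35 in females and 0.28, 0.25, 0.40 and 0.30 in males without overlap (-0.80, SE 0.11, adjusted p = 0.00791). Cyp6t3, Cyp4ae1, GstE13, Cyp18a1, Cyp4p3, Cyp9f2 and Cyp9b1 were higher in females, by -0.66 to -1.30. All 19 calls were lost without male replicate 1, male replicate 2 or female replicate 1, all but those of Cyp4d14 and Ugt49C1 also without female replicate 2, and 8 also without female replicate 3 or 4 (adjusted p = 0.052 to 0.22).

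Other genes named by the size of their change include several with no role given here. CG18265 read 2.62, 2.11, 2.13 and 1.94 in females and -2.89, -3.26, -3.50 and -3.78 in males (-5.47, SE 0.20, adjusted p = 1.3e-05). CG33109 stood at 5.12, 4.97, 5.78 and 5.59 and -0.32, -0.64, 1.63 and 1.64 (-5.33, SE 0.30, adjusted p = 8.04e-05). Phu gave 3.20, 2.91, 3.39 and 2.99 in females and -1.41, -1.54, -0.49 and -1.19 in males (-4.46, SE 0.23, adjusted p = 6.32e-05). The sexes were far apart for these 3 genes, and each was called with every array left out in turn. CG17192 and CG10814 were also higher in females, by -5.94 and -4.38 (adjusted p = 0.0207 and 0.0445), and lost the call without any one slide A array, CG10814 also without female replicate 3 or 4 (adjusted p = 0.0635 to 0.217). Among male-high genes, atk, an extracellular leucine-rich repeat protein of stretch-sensing organs, read -0.96, -1.35, -0.08 and 0.32 in males and -4.19, -3.83, -3.07 and -2.98 in females (2.89, SE 0.25, adjusted p = 0.000955), with the groups separate. CG15358 changed by 2.95 (adjusted p = 0.00848) and Alp13, an alkaline phosphatase, by 2.60 (adjusted p = 0.0383). Alp13 was well above background on 1 female array, where it overlapped the males, and both calls were lost without male replicate 1, male replicate 2 or female replicate 1, that of Alp13 also without female replicate 2 or 3 (adjusted p = 0.0508 to 0.161).

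Among the called probes set aside as bright in testis, the largest changes were higher in females. CG32713 read 1.83, -0.08, 4.88 and 4.31 in females and -7.81, -7.66, -3.69 and -6.36 in males (-8.75, SE 0.93, adjusted p = 0.00269). Dhd, a thioredoxin of the female germline, was at 3.34, -2.09, -0.66 and 2.93 in females and -7.90, -7.19, -5.53 and -7.96 in males. Female replicates 1 and 4 were the highest (-8.13, SE 1.63, adjusted p = 0.0267), and the call was lost without male replicate 1, male replicate 2 or female replicate 1 (adjusted p = 0.0941 to 0.145). The same pair of arrays stood out in the ovary and eggshell list, whose summed signal was 125 and 58.2 on female replicates 1 and 4, 11.3 and 11.5 on the other females and 8.77 to 11.4 in males. The eggshell gene Vm26Ac read 1.37 and -0.18 on those replicates and -3.53 and -5.05 on the others, and otu, an ovarian gene, -0.69, -0.78 and -5.11 on female replicates 1, 4 and 3, with no value on replicate 2 (change -5.19, adjusted p = 0.0636). Of 17 ovary genes tested, 2 were called (11.8%, near the 9.79% of all genes), psd, an eggshell protein gene, by -1.51 and Cp7Fa, a chorion gene, by -1.18 (adjusted p = 0.0398 and 0.0367). On the female arrays psd read 2.82, 1.86, 0.80 and 1.29, and Cp7Fa -5.09, -4.16, -4.80 and -4.92. Female replicates 1 and 4 were thus not the highest pair for either gene, and the sexes overlapped for psd. CG11379 and CG31115 were the other female-high genes named here, at -2.83 and -3.40 (adjusted p = 0.00166 and 0.0265). CG32713, dhd and CG31115 were each well above background on 1 male array. The sizes of their changes therefore rest mostly on male values not well above background. The call on psd was lost without any one array other than male replicate 3 or 4, that on Cp7Fa without those arrays except female replicate 1, and that on CG31115 without any one slide A array (adjusted p = 0.0557 to 0.196). The part of ovary RNA in these changes was not tested.

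Testis genes gave far less signal in the thorax of both sexes than in testis. Of 38 testis and male germline genes on the array, 24 were well above background on enough thorax arrays to be tested, 8 of them on all 8 arrays. None of the 24 was called by limma, and 2 had an unadjusted p under 0.05, as had 6096 of all 23084 probes tested. The summed signal of that list was 8.06 to 16.6 in males, highest on male replicate 3, and 6.49 to 7.36 in females, against 238 to 277 on the testis arrays. Among probes bright in testis that were higher in males, CG32625 was not well above background on any female array and was at least 2.97-fold higher in males (adjusted p = 0.00347). CG7910 and CG13010 changed by 2.29 and 2.13 (adjusted p = 0.0218 and 0.0188), and both calls were lost without any one slide A array (adjusted p = 0.0641 to 0.126). Su(Ste):CR41533, from the Y-linked repeats that silence Stellate, read -4.55, -4.17, -3.78 and -3.90 in males and -6.24, -6.69, -6.27 and -5.75 in females (2.11, SE 0.22, adjusted p = 0.00227). It was the only one of the 7 tested genes annotated to the Y that was called. Females have no Y, yet ARY read -1.31 to -1.40 in males and -0.87 to -1.49 in females.

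Of the remaining lists, nervous system genes gave 2 calls of 16 (12.5%, near the 9.79% of all genes), both higher in males. Repo, a homeobox gene of glia, was at -0.16, -0.43, -0.23 and -0.12 in males and -0.93, -0.87, -1.12 and -0.88 in females (0.63, adjusted p = 0.0264), and ChAT, which makes acetylcholine, changed by 0.73 (adjusted p = 0.0447), its other probe by 0.56 (adjusted p = 0.179). Both were separate between the sexes and lost the call without any one slide A array, ChAT also without female replicate 3 or 4 (adjusted p = 0.0586 to 0.206). No gene of the eye and head list (16 tested, 6 with an unadjusted p under 0.05) or of the accessory gland and ejaculatory duct list (6 tested, 2 with an unadjusted p under 0.05) was called. Of all 23084 probes tested, 6096 had an unadjusted p under 0.05. The eye list had a median change of 1.18 and a summed signal of 9.81 to 26.8 in males and 9.13 to 24.1 in females. With array weights, 6 of the eye genes and 2 of the accessory gland genes were called higher in males and 1 accessory gland gene in females. That setting called 2643 of all 23084 probes higher in males and 2984 in females.

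**Figure D5:**
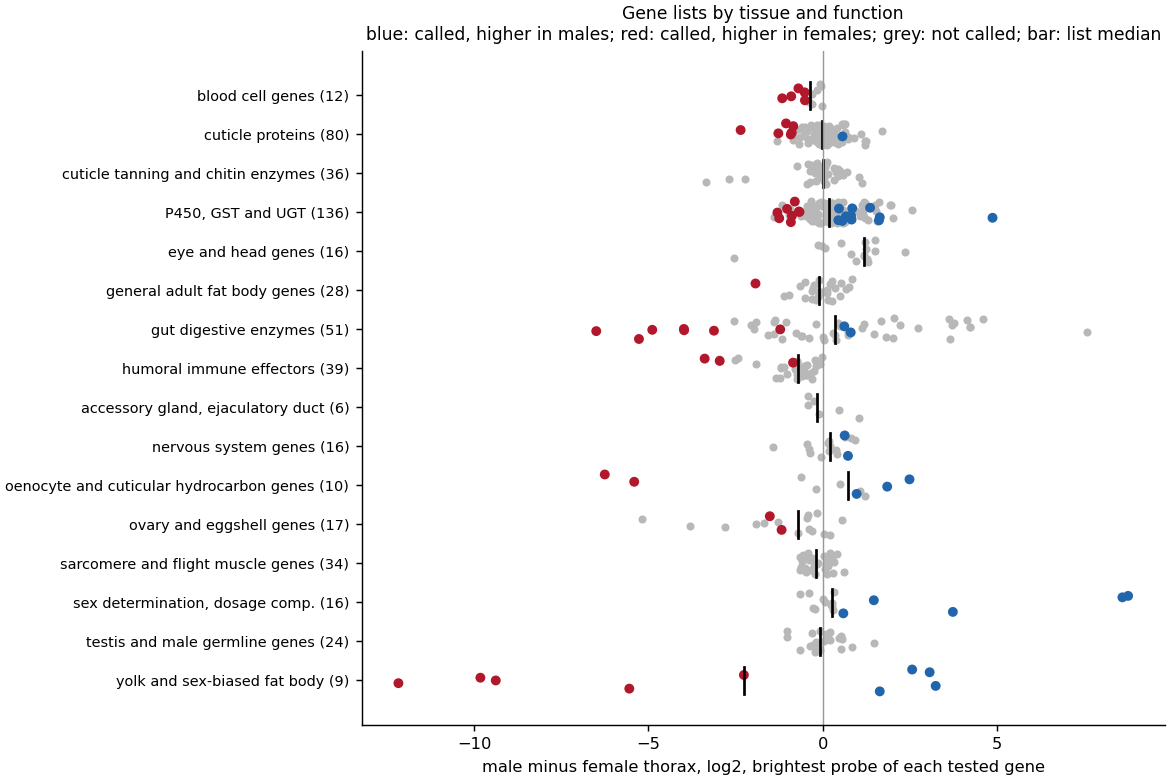
Change of the brightest probe of each tested gene, male minus female thorax in log2 units (horizontal axis), for 16 gene lists with the number of genes tested in brackets. Blue and red points are genes called higher in males and in females, grey points were not called, and black bars mark list medians. Sarcomere genes crowd around 0, the gut list spreads from -6.50 to 7.60, and every immune gene lies below 0, which did not hold without female replicate 2, where the median was 0.04.

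By chromosome, sex-biased genes were spread over all large arms. On the X, 92 of 1774 genes were called higher in males (5.19%) and 108 in females (6.09%). On the autosomal arms the share higher in males was 3.35% to 4.10% and that higher in females 5.06% to 6.52%. Of 77 genes on chromosome 4, 5 were higher in females (6.49%, near the 5.74% of all genes) and 0 in males (4.05% of all genes). The median change was -0.03 on the X and -0.05 to -0.02 on the autosomal arms.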

How the data were processed

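Thorax and testis RNA was hybridized to 1-color Agilent Drosophila arrays. The deposited files hold each spot's intensity as the authors' Agilent Feature Extraction software wrote it, background-subtracted with small values replaced by a positive surrogate and with no scaling between arrays. The labels name version 9.1 and the file headers 10.5.1.1. The authors also deposited log2 values per tissue from these intensities, used only as an alternative. The files number no replicates, so numbers follow slide and position.

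Control spots and spots flagged as non-uniform or outliers (112 to 199 per thorax array) were left out, the remaining spots of a probe averaged and taken to log2, and the array's 75th percentile subtracted. Probes well above background on at least 4 of the 8 arrays were tested, so a gene at background in one sex could pass through the other. The fit was limma's lmFit and eBayes with the slide as a random block (consensus correlation 0.732). The precision is limited by the 4 arrays per sex. On simulated thorax arrays (22939 probes, 200 changed) the fit recovered 52% of changes of 1 log2 unit and 84% of 2, with 2.16% of calls false. The simulation took the fit's own slide correlation for every probe and an equal spread on all arrays. It therefore does not give the share of false calls among the real ones.

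Probes took gene names from a RefSeq table of a later release than the array's annotation, 18121 by locus tag, 1155 by older locus tag, 136 by synonym and 115 by accession. Another 150 matched several genes and 12485 none. A gene is represented by its brightest probe. Named genes are the 15 largest called changes in each direction among probes not bright in testis and well above background throughout the brighter sex, the 5 largest in each direction among those set aside, every called gene of a list, and 14 genes named in every case. Genes and lists were chosen with earlier results of these data known.

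Alternatives covered the slide term, slide A alone, all 12 arrays, array weights, the scaling, normexp (offset 50, on median signals), the filter, a variance trend, each array left out, the definition of bright in testis, the authors' table and a gene's other probes. Scan day as a fixed effect and the second scan day alone were added after seeing the data. Software was R 4.3.3, limma 3.58.1, Python 3.11.15, numpy 2.4.6, pandas 2.3.3 and matplotlib 3.10.9.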

Additional observations from a re-analysis of the deposited data

Results flagged for a closer look

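Among 182 groups of 4 arrays of the named probes, 7 held a value set far apart from the other 3 of its sex, where chance alone flags about 1 in 20 groups. In males, replicate 4 was low for roX2, at 0.49, and for Jon25Bi, at -7.06, and high for tra, at 0.19. Replicate 3 was high for Yp1, at -2.71, and for CG31115, at -5.62, and replicate 2 was high for TotC, at 4.42. In females, replicate 4 was low for CG32625, at -8.72, where the probe was not well above background on any female array. All values are log2 signals relative to the array's 75th percentile.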

How the results depend on the processing

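The counts of called probes moved widely with the settings, given here as all calls, then higher in males, higher in females and not bright in testis. They were 1935, 851, 1084 and 1350 as reported. They were 386, 172, 214 and 318 with no slide term, 1033, 428, 605 and 747 with the slide as a fixed effect, and 339, 158, 181 and 279 on slide A alone. With all 12 arrays in the fit they were 163, 52, 111 and 140, and with array weights 5627, 2643, 2984 and 3821. No scaling gave 232, 150, 82 and 195, so that 64.7% of calls were higher in males against 44.0% as reported, while the median change of all probes moved from -0.01 to 0.51. Median scaling gave 1200, 447, 753 and 886, and normexp background correction 120, 29, 91 and 108, with 24.2% higher in males and a median change of -0.20. No filter gave 473, 213, 260 and 391. In the 2 alternatives added after seeing the data, scan day as a fixed effect gave 4512, 2364, 2148 and 3281, and the second scan day alone 38, 11, 27 and 34. All 12 arrays together gave 31.9% of calls higher in males, and the second scan day alone 28.9%. With 1 array left out at a time there were 210 to 3489 calls, 84 to 1611 higher in males, 126 to 1878 higher in females and 181 to 2359 not bright in testis. Quantile normalization, the other filters and the variance trend stayed within 1.5 times. Probes set aside as bright in testis numbered 585, 217 with a margin of 1 log2 unit over both thorax means and 1252 with the testis median as the limit. The cause of these shifts was not tested. Every called probe shared between these settings and the reported fit had the same direction. Fits to overlapping arrays can hardly give anything else for probes called in both, so this is no check on the calls.

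Of 2151 values of named genes under alternatives, 1379 kept direction and side of the threshold, 725 fell short of it, and 7 turned direction. These were CG13010 (-0.14), Cpr64Ad (-0.006) and Cyp313b1 (-0.50) under normexp, Cyp9f2 on the second scan day alone (0.015), and fru, which was not called as reported, with no scaling (0.23), without female replicate 2 (0.036; -0.47 to 0.036 with each array left out) and in the authors' table (0.003). Of 89 called named probes, 9 were called under every alternative and 34 under at most 11 of the 23. Calls near background rest on few arrays, and 4 called probes lack a value on an array. No paired analysis was possible because the labels number no replicates of one sex to match the other; the slide term is the only block.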

Other observations

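Some genes with several probes, singled out after their values were seen, changed by probe. SERCA, the calcium pump of muscle, had 5 probes tested. The brightest read 6.26, 6.09, 6.28 and 5.97 in males and 6.29, 6.66, 5.75 and 5.64 in females (-0.20, adjusted p = 0.528), whereas 2 dimmer probes were called higher in males, by 1.4 and 1.75 (adjusted p = 0.0413 and 0.0444). Cyp4g1, the P450 of oenocytes that completes hydrocarbon synthesis, had 4 probes, with changes of 1.07 to 2.06. Of these, 2 were called (adjusted p = 0.0148 and 0.0242), and the brightest was not (adjusted p = 0.0563). Npc2h, of a family of lipid-binding secreted proteins, was higher in males on both of its probes, by 1.67 and 2.06 (adjusted p = 0.00286 and 0.00103). CG6870 and CG13502 were higher in females, by -3.60 and -3.83 (adjusted p = 8.84e-05 and 0.000122), with all female arrays above all male arrays.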
